A study of Mus musculus with 4 samples.

Results

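Troponin is the calcium switch of striated muscle, and its 3 subunits are each made in tissue-specific isoforms. The 8 troponin genes Tnnc1, Tnnc2, Tnni1, Tnni2, Tnni3, Tnnt1, Tnnt2 and Tnnt3 were followed here, out of 18193 genes that the array's annotation names through probe sets of 1 gene only. They were represented by 12 such probe sets, 3 each for Tnni2 and Tnnt2 and 1 each for the others, and all 12 are described. Transcripts were measured in ventricles of mouse embryonic hearts at embryonic day 17.5, from a C57BL/6 X SV129 background, on 4 Affymetrix MOE430v2 arrays. The 2 WT arrays carried RNA pooled from 2 wild-type embryos each. The 2 KO arrays carried RNA pooled from 3 littermates each that lacked HDAC2, a histone deacetylase. The sources used here do not give the allele, the tissues that lost HDAC2, or whether any pools shared a litter. The p-values thus measure the spread between pools, which may be partly technical, and pool size differs with genotype.

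Troponin C binds calcium, troponin I holds the filament off when calcium is low, and troponin T ties the complex to tropomyosin on the actin filament. The heart is known to use Tnnc1, Tnni3 and Tnnt2. The fetal heart also makes Tnni1, the slow skeletal troponin I, which Tnni3 replaces after birth. Slow skeletal fibres use Tnnc1, Tnni1 and Tnnt1, and fast skeletal fibres use Tnnc2, Tnni2 and Tnnt3.

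The source label of both KO samples describes them as wild type, so Hdac2 was read first. Its brightest probe set, 1445684_s_at, gave 1189 and 1421 in WT, against 31.4 and 21.0 in KO. Present calls covered 42.4% to 43.7% of probe sets on the 4 arrays. The actin control's 3' over 5' signal ratio, which rises as RNA shortens, ranged from 1.85 to 2.32 in WT and from 2.42 to 2.75 in KO. Xist, the RNA of the inactive X chromosome, was 7.74-fold higher in KO (adjusted p = 8.10e-07 in limma), and the Y-linked Eif2s3y was 2.53-fold lower. The parts of RNA length and of embryo sex in the results that follow were not tested. Of 17 cardiomyocyte markers, 16 were Present on every array, Tbx5 being the exception.

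All 3 fast troponin genes fell in KO, and so did the slow troponin T gene Tnnt1, while Tnnc1, Tnni1 and Tnni3 and the main probe sets of Tnnt2 did not pass the test. Fast troponin C and fast troponin T dropped to undetected levels, whereas fast troponin I and slow troponin T dropped 2.0-fold and 1.84-fold. Of the 11 troponin probe sets tested, 6 passed at an adjusted p under 0.05 in limma, all of them lower in KO. Among them, Tnnc2, Tnnt3 and Tnni2 1438609_x_at were not Present on both KO arrays, so they entered the test through WT. With Present calls required on all 4 arrays, 3 of 8 were lower. Over the 19065 probe sets tested, 1.34% passed and 0.960% were lower. None was higher (0 of 11, and 0 at an unadjusted p under 0.05), against 0.383% over the array. In 7 of the 11, both KO arrays lay below both WT arrays, which held for 22.5% of all probe sets tested, and in 0 did both lie above, which held for 25.0%. The signal is the linear brightness that MAS5 gives a probe set, and its Present, Marginal or Absent call states whether the probe set was detected. Each difference is KO minus WT in log2 signal, ± its moderated standard error (SE), with 2 arrays per group. In bulk tissue, fewer cells of a type and less RNA per cell cannot be told apart.

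**Figure D1:**
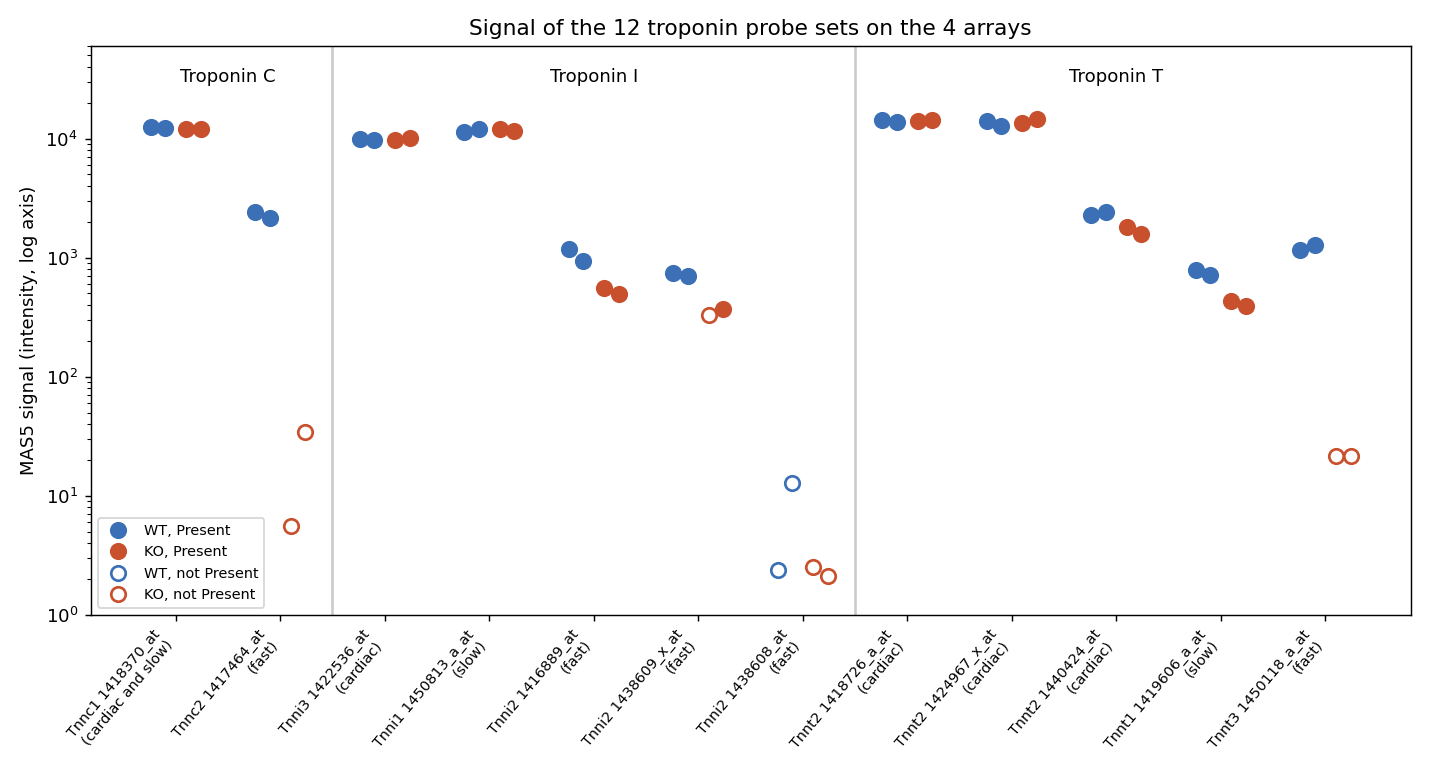
MAS5 signal (log axis) of each of the 12 troponin probe sets on the 2 WT arrays (blue) and the 2 KO arrays (red), grouped by subunit; filled points were called Present and open points Marginal or Absent. Tnnc2 and Tnnt3 go from filled points at 1153 or above in WT to open points at 34.6 or below in KO, while Tnnc1, Tnni3, Tnni1 and the 2 brightest Tnnt2 probe sets stay between 9721 and 14734.

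In the calcium-binding subunit, fast troponin C fell and the troponin C of heart and slow fibres did not pass the test. Tnnc2, fast troponin C, gave 2418 and 2161 in WT, against 5.6 and 34.6 in KO at probe set 1417464_at. Both WT arrays were far above both KO arrays, which differed from each other by more than the WT arrays did and were called Absent. The fall was at least 156-fold when the KO signals are held to the lowest signal called Present on each array, and the fitted difference was -7.36 ± 0.53 (adjusted p = 3.41e-06 in limma). The bound was 66.1-fold without KO replicate 1 and 369-fold without KO replicate 2, so its size rests on the KO arrays. The fitted difference had a 95% interval of -8.51 to -6.21, yet was -6.05 without KO replicate 1 and -8.67 without KO replicate 2. Its SE is moderated towards the variance of other probe sets, while the KO arrays had an SD of 1.86 in log2. The SE was 1.19 with a robust variance prior, so the interval understates the spread between the KO pools. The fitted difference was -6.94 with signals under 10 raised to 10, and -4.83 with 64 added to each signal. The call ended without a variance trend (adjusted p = 0.0925 in limma) and with a robust variance prior (0.206). Tnnc1, the troponin C of heart and slow fibres, gave 12591 and 12197 in WT, against 11995 and 12142 in KO at 1418370_at. Its KO arrays lay just under the WT arrays, with a difference of -0.038 ± 0.079 that did not pass (adjusted p = 0.857, 95% interval -0.21 to 0.13).

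The promoters of the 2 troponin C genes are shown because these paralogues gave different results. RefSeq's table for GRCm38.p6 held promoters of 6 of the 8 genes, and the 250 bases before the start are printed on the gene's strand. Tnnc2 lies at chr2:164779735-164779984 (minus strand) and Tnnc1 at chr14:31208062-31208311 (plus strand). Capitals mark matches on either strand to the E-box CANNTG, which myogenic factors are known to bind, the TATA box TATAAA, the M-CAT core CATTCC of TEAD factors, the GATA motif AGATAA, and the MEF2 and CArG motifs. No matches overlapped in the printed sequences.
Tnnc2: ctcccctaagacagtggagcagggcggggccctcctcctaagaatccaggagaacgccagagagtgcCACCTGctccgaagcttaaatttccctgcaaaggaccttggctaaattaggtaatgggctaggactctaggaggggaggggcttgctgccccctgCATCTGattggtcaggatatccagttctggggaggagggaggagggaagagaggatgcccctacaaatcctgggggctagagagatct
Tnnc1: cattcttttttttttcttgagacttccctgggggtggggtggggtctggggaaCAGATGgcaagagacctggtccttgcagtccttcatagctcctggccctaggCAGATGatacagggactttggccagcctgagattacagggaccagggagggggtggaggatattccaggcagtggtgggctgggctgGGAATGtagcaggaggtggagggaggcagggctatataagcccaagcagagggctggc
Both promoters held 2 E-box matches, at 183 and 88 bases before the start in Tnnc2 and at 197 and 145 in Tnnc1. Tnnc1 also held an M-CAT match at 58 bases before its start. Of 32841 promoters searched over the same 250 bases, 66.2% held an E-box match and 12.6% an M-CAT match. The other motifs had no match in these windows, and matched in 12.4% (TATA box), 9.99% (GATA), 2.92% (MEF2) and 1.47% (CArG) of promoters. Only the exact letters TATAAA were searched for the TATA box, so the similar stretch tatataag near the Tnnc1 start was not counted.

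Among the inhibitory subunits, only fast troponin I passed the test. Tnni2, fast troponin I, gave 1188 and 933 in WT, against 561 and 494 in KO at its brightest probe set, 1416889_at. The groups did not overlap, all 4 arrays were called Present, and the difference was -1.0 ± 0.14 (adjusted p = 0.00213 in limma). A second Tnni2 probe set, 1438609_x_at, gave 740 and 704 in WT, against 333 and 367 in KO, a difference of -1.05 ± 0.13 (adjusted p = 8.51e-04 in limma). It was called Present on both WT arrays and KO replicate 2, and Marginal on KO replicate 1. The third, 1438608_at, drawn from the same transcript record as the second, gave 2.4 and 12.9 in WT, against 2.5 and 2.1 in KO. It was Absent on all 4 arrays and was not tested. Tnni3, cardiac troponin I, gave 9994 and 9721 in WT, against 9758 and 10160 in KO (0.015 ± 0.081, adjusted p = 0.951, 95% interval -0.16 to 0.19). Tnni1, the slow form of the fetal heart, gave 11393 and 12089 in WT, against 11946 and 11684 in KO (0.0096 ± 0.080, adjusted p = 0.968, 95% interval -0.16 to 0.18). The 2 groups overlapped for both genes.

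Among the tropomyosin-binding subunits, fast and slow troponin T fell by very different amounts. Tnnt3, fast troponin T, gave 1153 and 1269 in WT, against 21.6 and 21.7 in KO at 1450118_a_at. It was Present on both WT arrays and Absent on both KO arrays, with a fitted fall of 55.9-fold (-5.80 ± 0.18, adjusted p = 2.91e-10 in limma). The 95% interval was -6.18 to -5.42 on the log2 scale. Its undetected KO signals lay above the lowest Present signals, so no separate bound was set. The fold was 53.3-fold to 58.6-fold when any 1 array was left out. Tnnt1, slow troponin T, gave 794 and 717 in WT, against 430 and 390 in KO at 1419606_a_at. It stayed Present on all 4 arrays with no overlap between groups, and fell by 0.88 on the log2 scale (SE 0.13, adjusted p = 0.00355 in limma). Without a variance trend, neither Tnnt1 (adjusted p = 0.170 in limma) nor the Tnni2 probe sets 1416889_at (0.177) and 1438609_x_at (0.152) passed.

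Tnnt2, cardiac troponin T, gave different results at its 3 probe sets. The brightest, 1418726_a_at, gave 14413 and 13698 in WT, against 13974 and 14271 in KO (0.0073 ± 0.079, adjusted p = 0.976, 95% interval -0.16 to 0.18). The next, 1424967_x_at, gave 14086 and 12679 in WT, against 13551 and 14734 in KO (0.080 ± 0.086, adjusted p = 0.691). The groups overlapped at both. The dimmest, 1440424_at, gave 2290 and 2410 in WT, and 1811 with 1567 in KO, and passed narrowly (-0.48 ± 0.11, adjusted p = 0.0452 in limma). That call ended when WT replicate 1 (adjusted p = 0.140 in limma), WT replicate 2 (0.200) or KO replicate 2 (0.128) was left out. The stretch of Tnnt2 that each probe set reads was not analysed here.

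**Figure D2:**
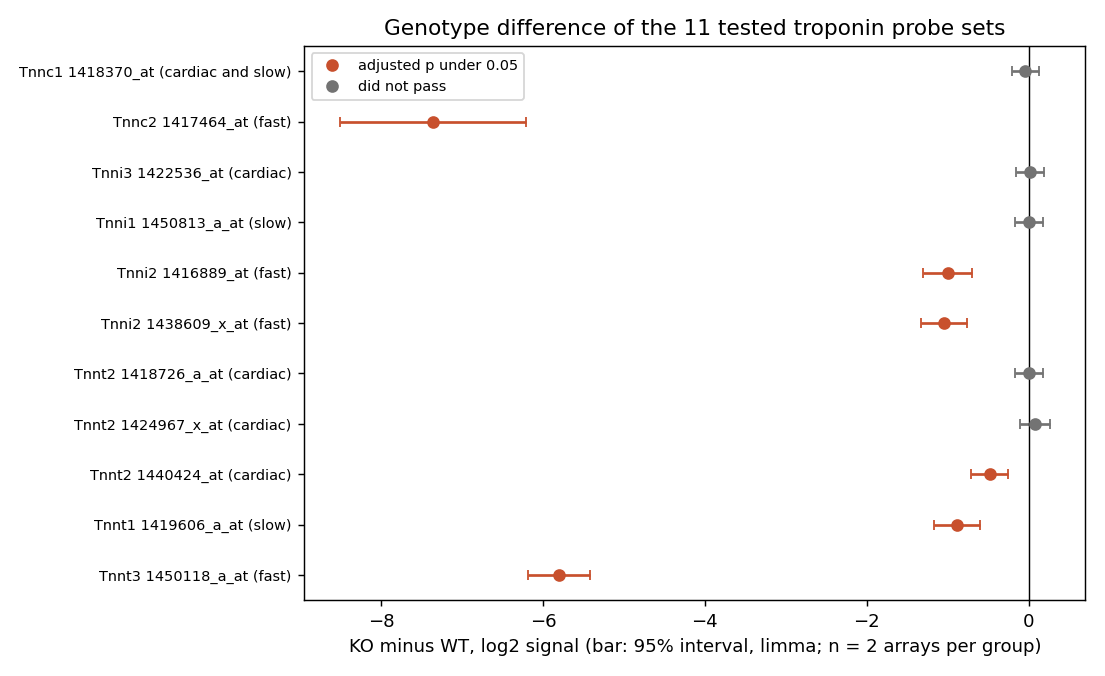
KO minus WT difference in log2 signal of the 11 tested troponin probe sets, with 95% intervals from limma (2 arrays per group); red points passed an adjusted p of 0.05. Tnnc2 and Tnnt3 lie at -7.36 and -5.80, the Tnni2 and Tnnt1 probe sets near -1, Tnnt2 1440424_at at -0.48, and the other 5 intervals cross 0.

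The 5 probe sets that did not pass were among the brightest on the array, above 99.8% or more of the other probe sets on every array. Their signals ran from 9721 to 14734, against array maxima of 15415 to 15978, and whether probes this bright respond in proportion to RNA was not tested. Over these 5, the 95% intervals reached from -0.21 to 0.27 on the log2 scale, so changes of 0.866-fold to 1.2-fold mark the edge of what the arrays bounded.

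**Figure D3:**
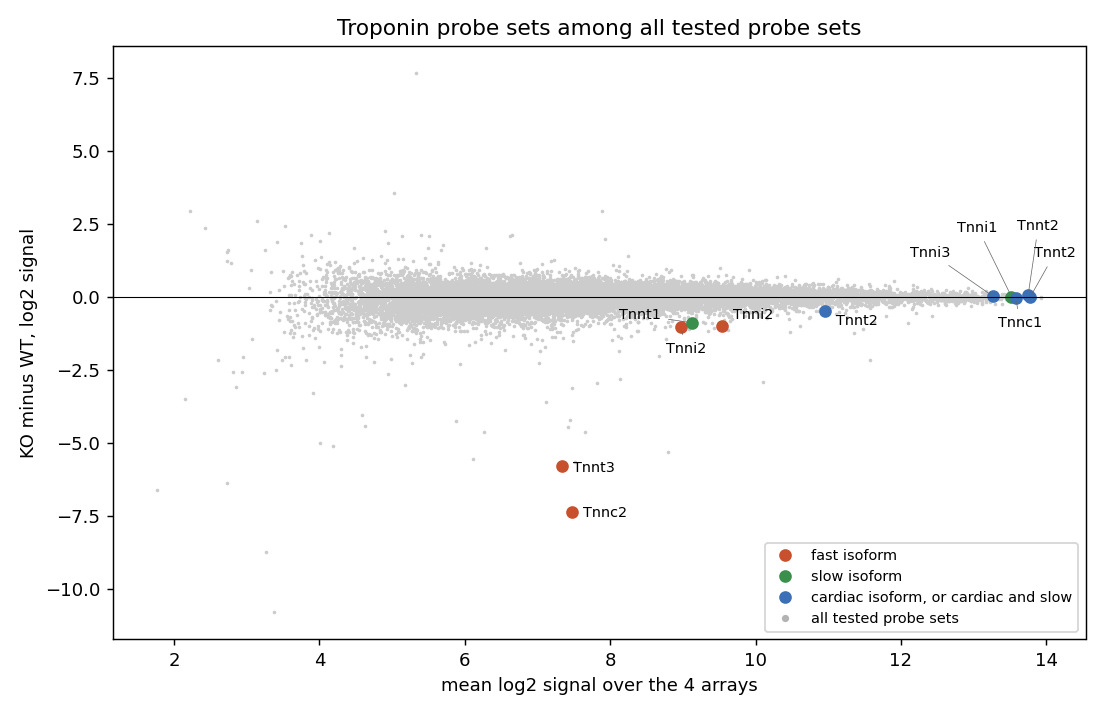
KO minus WT difference against mean log2 signal over the 4 arrays for all 19065 tested probe sets (grey) and the 11 troponin probe sets (coloured by isoform class). Tnnc2 and Tnnt3 lie far below the grey cloud, the Tnni2, Tnnt1 and dimmest Tnnt2 points lie at its lower edge, and the remaining 5 sit at the bright end close to 0.

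Isoforms of 1 subunit were then set against each other within each array, so that any scaling of an array cancels. The value is the log2 signal of the first isoform minus that of the second, and its change is KO minus WT. Only the change is read, since probe sets differ in brightness per transcript. Fast against heart and slow troponin C, Tnnc2 minus Tnnc1, was -2.38 and -2.50 on the WT arrays and -11.06 and -8.46 on the KO arrays, a change of -7.32 ± 0.54, or at least 152-fold. That bound became 64.7-fold when KO replicate 1 was left out and 357-fold when KO replicate 2 was. For troponin T, Tnnt3 minus Tnnt2 changed by -5.81 ± 0.19 and Tnnt3 minus Tnnt1 by -4.92 ± 0.22, so the fast form fell further than the slow one. The slow form against the cardiac one, Tnnt1 minus Tnnt2, changed by -0.89 ± 0.15. For troponin I, Tnni2 minus Tnni3 changed by -1.01 ± 0.16 and Tnni2 minus Tnni1 by -1.01 ± 0.16, while Tnni1 minus Tnni3 changed by -0.0050 ± 0.11. In 6 of the 7 pairs both KO arrays lay below both WT arrays, with Tnni1 minus Tnni3 the exception. Each of the 6 holds Tnnc2, Tnni2, Tnnt1 or Tnnt3, which were lower by themselves, so the count repeats those results. Among single probe sets tested, 22.5% showed this order, and the share among gene pairs was not computed. The exact permutation test over arrays, two-sided, gave p = 0.333 for each of those 6 (0.389 adjusted over the 7 pairs), which is the smallest p that 2 arrays against 2 can give, so no pair could pass.

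The fast isoforms were also set against each other, in pairs chosen after their values were seen. Tnnc2 fell at least 78.1-fold further than Tnni2, with a bound of 31.0-fold without KO replicate 1 and 197-fold without KO replicate 2. Tnnt3 fell 28.0-fold further than Tnni2 in the fit, with its KO signals undetected. Tnnc2 and Tnnt3 were both undetected in KO, so the order of their falls has no bound: on the WT arrays Tnnc2 minus Tnnt3 stood at 1.07 and 0.77, and on the KO arrays at -1.95 and 0.67. The changes of Tnni2 and of the slow Tnnt1 differed by -0.12 ± 0.19 on the log2 scale. The exact permutation p was 0.333 for the 3 fast pairs, again the smallest possible, and 0.667 for Tnni2 against Tnnt1.

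Troponin I and troponin T genes lie side by side in the mouse genome, and neighbours did not always share their result. In the order of protein-coding genes of GRCm38.p6, Tnnt1 and Tnni3 are adjacent on chromosome 7. Tnni2 and Tnnt3 lie further along chromosome 7 with 1 gene between them, Lsp1, and Tnni1 and Tnnt2 lie on chromosome 1 with Lad1 between them. In the first pair Tnnt1 fell and Tnni3 stayed at 0.015 ± 0.081. In the second both genes fell, while Lsp1, an actin-binding protein of white blood cells, gave 418 and 382 in WT, against 487 and 432 in KO (0.20 ± 0.14, adjusted p = 0.512 in limma). In the third the difference was 0.0096 for Tnni1 and 0.0073 for Tnnt2 at its brightest probe set. Tnnc1 and Tnnc2 lie apart, on chromosomes 14 and 2.

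The promoters of the adjacent pair are shown because its genes gave different results. The 250 bases before the start lie at chr7:4515976-4516225 for Tnnt1 and chr7:4522529-4522778 for Tnni3, both on the minus strand of GRCm38.p6, with capitals as above.
Tnnt1: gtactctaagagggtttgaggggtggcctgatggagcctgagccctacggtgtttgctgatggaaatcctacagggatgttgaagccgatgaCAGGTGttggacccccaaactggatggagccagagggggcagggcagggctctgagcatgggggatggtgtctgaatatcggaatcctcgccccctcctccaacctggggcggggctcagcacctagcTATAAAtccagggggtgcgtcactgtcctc
Tnni3: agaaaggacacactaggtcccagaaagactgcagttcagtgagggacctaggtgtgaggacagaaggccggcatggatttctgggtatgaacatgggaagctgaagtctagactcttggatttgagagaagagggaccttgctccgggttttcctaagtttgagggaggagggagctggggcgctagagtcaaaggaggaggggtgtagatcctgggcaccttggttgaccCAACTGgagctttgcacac
Tnnt1 held an E-box match at 158 and a TATA box match at 30 bases before its start. Tnni3 held an E-box match at 19 bases before its start and no match to the other motifs.

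The genes whose pattern over the 4 arrays was closest to each lower troponin were read as a description, by the root mean square distance of centred log2 signals among 9881 genes. Closest to Tnnc2 were Dmp1, a bone matrix protein (distance 0.886), Tnnt3 itself (1.21) and the collagenase gene Mmp13 (1.35). Closest to Tnnt3 were Hdac2 (0.224), Mylpf, a fast myosin light chain (0.30), and Dmp1 (0.345). The nearest to Tnni2 were Slc16a12, a membrane transporter (0.0712), Afap1l2, an actin-associated adaptor (0.0713), and Jchain, the joining chain of antibodies (0.0749). Tnnt1 was nearest to Hykk, a hydroxylysine kinase (0.0179), Ppp2r5b, a subunit of protein phosphatase PP2A (0.0264), and Alkbh8, a tRNA-modifying enzyme (0.0509). All these distances rest on 4 arrays that differ mainly by group, and the sets of Tnnc2 and Tnnt3, and Jchain in that of Tnni2, include KO signals that were not detected.

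Several genes that work beside the fast troponins fell as well. Of 19 fast-fibre partners on the array, 11 were tested and 7 fell, none rose and 4 did not pass, against 0.815% of 10184 genes lower and 0.491% higher. The other 8 had no Present call on any array. Of the 11 tested, all were Present on both WT arrays and 6 on both KO arrays, so those lost in KO entered the test through WT. Their median difference was -3.02, or -2.92 with undetected members at their bound, against 0.035 over all genes tested. Mylpf, the regulatory light chain of fast myosin, gave 2972 and 2654 in WT, against 80.4 and 62.5 in KO, where both arrays were called Absent. Myl1, the fast essential light chain, gave 3082 and 2945 in WT, against 419 and 377 in KO. Myoz1, a fast-fibre Z-disc protein, gave 517 and 545 in WT, against 160 and 134 in KO. Atp2a1, the calcium pump of fast fibres, was Absent on both KO arrays, with a fitted fall of 8.78-fold (95% interval -3.87 to -2.40 in log2). That fold became 5.16-fold when KO replicate 1 was left out and 14.9-fold when KO replicate 2 was. For the embryonic and perinatal heavy chains, Myh3 and Myh8, the differences were -4.47 and -4.64, with Myh3 called Absent on KO replicate 1. Both are among the 7 that fell, so that count is not of adult fast-fibre genes alone. Actn3, the alpha-actinin of fast fibres, gave 118 and 90.2 in WT, then 4.3 and 37.8 in KO, and just missed the threshold (adjusted p = 0.0506 in limma). Casq1, a calcium-storage protein, stood at 0.31 ± 0.11 (adjusted p = 0.209) and Eno3, muscle enolase, at -0.040 ± 0.096 (adjusted p = 0.880).

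None of the genes listed as slow-fibre partners shared with the heart passed. Of this list, Myh6, Myh7, Myl2, Myl3, Mybpc3 and Ryr2 are also cardiomyocyte markers read below. The list thus reads heart genes as well as slow-fibre genes. Of 14 tested, 0 passed in limma in either direction, with 2 at an unadjusted p under 0.05 and a median of -0.031. Over all 10184 genes tested, 15.6% had an unadjusted p under 0.05, so 2 of 14 is near that share. The closest to passing was myoglobin, Mb, at -0.23 ± 0.080 (adjusted p = 0.191). Myh7 (14855 to 15978), Myl3 (15296 to 15911) and Myl2 (14287 to 14917) lay at or near the array maxima of 15415 to 15978. Whether signals this bright respond in proportion to RNA was not tested. Among the 15 thin filament partners tested, 2 fell and none rose, against 0.815% of all genes lower and 0.491% higher, with a median of -0.046. These were Acta1, skeletal alpha-actin, which gave 6453 and 6524 in WT, against 1510 with 1393 in KO, plus Neb, the filament ruler nebulin, which fell at least 13.1-fold. All 15 were Present on both WT arrays and 13 on both KO arrays. Neb was Absent on both KO arrays and so entered the test through WT. The Neb bound was 9.30-fold to 18.5-fold with an array left out. The tropomyosins Tpm1, Tpm2, Tpm3 and Tpm4, on which troponin T sits, ranged from -0.17 for Tpm2 to 0.15 for Tpm4 and none passed.

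Among 3 lists of genes that act on troponin or its transcripts, 1 gene passed, which is near the share over all genes (0.815% lower and 0.491% higher). Of 16 kinases and phosphatases of troponin tested, Prkce, a protein kinase C that can phosphorylate troponin I, fell from 376 and 387 to 222 and 246 (-0.71 ± 0.15, adjusted p = 0.0340 in limma), and the other 15 did not pass (median of all 16, -0.042). Of 14 transcription factors of fibre type tested, 0 passed in limma, with 2 at an unadjusted p under 0.05 and a median of -0.090, the closest being Tead1 (0.35 ± 0.12, adjusted p = 0.188). Of 9 splicing factors of troponin T tested, 0 passed in limma, with 4 at an unadjusted p under 0.05 (15.6% over all genes) and a median of -0.034. The closest was Khdrbs1, an RNA-binding protein of the STAR family (-0.53 ± 0.12, adjusted p = 0.0557).

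**Figure D4:**
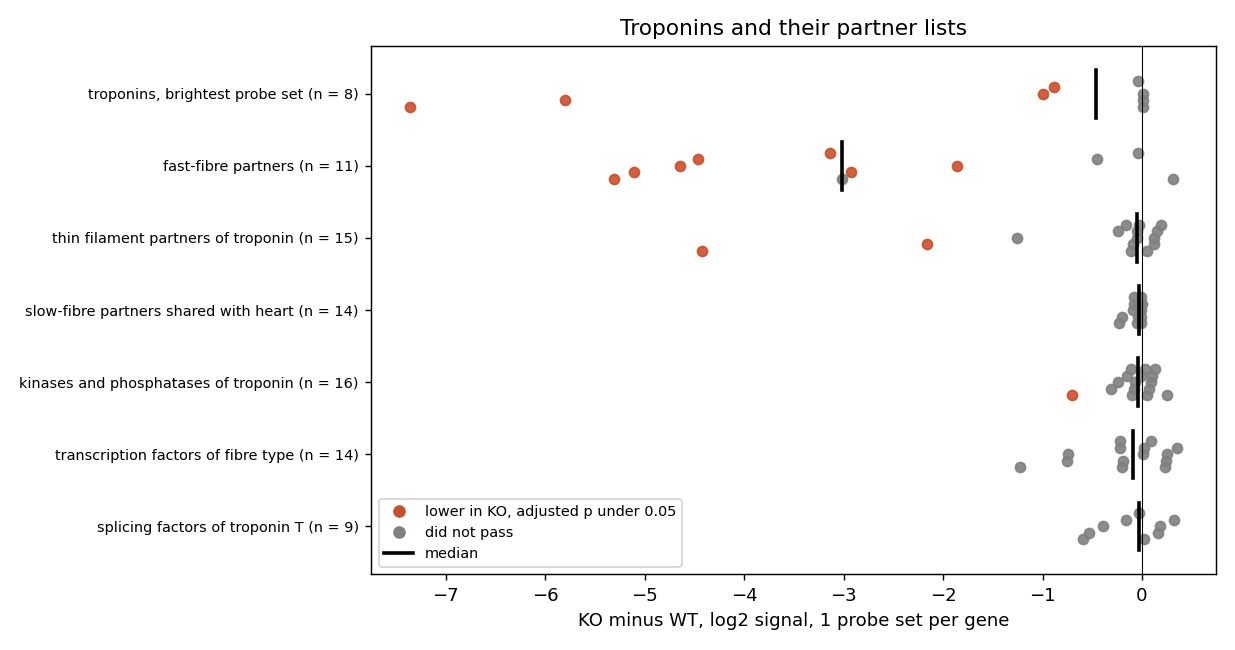
KO minus WT difference in log2 signal with 1 probe set per gene, its brightest tested, for the 8 troponins and 6 lists of genes that work with them; red points passed an adjusted p of 0.05 and black bars are medians. The fast-fibre partners spread down to -5.31 with a median of -3.02, while the slow-fibre partners cluster around -0.031.

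Markers of other cell types were read beside the fast troponins. Of 14 markers of skeletal myoblasts and endplates, 3 and 2 were Present in WT and 0 and 0 in KO, and their summed signal was 523 to 552 in WT and 203 to 257 in KO. Most of the WT sum, 336 to 385, came from the 11 markers with no Present call on any array, so it is largely undetected signal. The defining factors Myod1, Myog, Myf5, Myf6, Pax3 and Pax7 had no Present call on any array at their brightest probe set, and neither did 5 others of the list. Neither of the 2 tested passed, the closest being Chrna1, a subunit of the endplate receptor (-0.76 ± 0.30, adjusted p = 0.240). Of 5 bone and cartilage markers tested, 3 fell (Ibsp, Mmp13 and Dmp1), against 0.815% of all genes. All 3 were Absent on both KO arrays and entered the test through WT, and the summed signal of the 8 on the array was 567 to 625 in WT and 156 to 159 in KO. Of 8 fibroblast markers, Col1a1 and Col1a2 fell (-0.73 and -0.55) and the other 6 did not pass, against 0.815% of all genes lower. Pdgfra, a receptor of fibroblasts, stood at 0.52 ± 0.17 (adjusted p = 0.162 in limma), the median of the 8 was -0.049, and the summed signal was 17999 to 18217 in WT and 15214 to 16366 in KO. Of 2 red cell markers tested, Hbb-y rose 4.83-fold in the fit (0.491% of all genes were higher). It was Absent on both WT arrays and entered the test through KO, and its fold was 3.48-fold to 6.69-fold with an array left out. The summed signal of the 5 on the array, 3 of them with no Present call, was 402 to 480 in WT and 568 to 601 in KO. Cardiomyocyte markers had a summed signal of 124650 to 126760 in WT and 121750 to 129610 in KO, with 0 of 16 past the threshold in limma and 1 at an unadjusted p under 0.05, Nkx2-5. Myh7, Myl2 and Myl3 of these markers lay at or near the array maxima, as said above. No smooth muscle marker (0 of 5 tested) or endothelial marker (0 of 7) passed in limma, with 1 of each at an unadjusted p under 0.05. Their summed signals were 9575 to 9829 and 2857 to 2860 in WT, and 10643 to 11160 and 2762 to 3056 in KO. The part of these cell types in the troponin results was not tested.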

How the data were processed

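The values are those of 4 one-colour arrays. The authors made an intensity for each probe set with MAS5 (version not given), per the submitters' processing notes, and all 4 arrays had a 2%-trimmed mean of 150. Per the file headers, the deposited detection p-value comes with a Present, Marginal or Absent call, and the deposited signal log ratio is a log2 value against a baseline array not given in the sources used here. Only the call, the signal and, as an alternative, the log ratio entered tests.

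Of 45037 probe sets besides 64 controls, 34945 name 1 gene, 932 several and 9160 none in the platform annotation. Symbols were updated through RefSeq's gene table of GRCm38.p6 (34741 matched). Probe sets with 2 Present calls in WT, in KO or in both (19065, naming 10184 genes) were fitted with limma 3.58.1 in R 4.3.3, on log2 signal with a floor of 0.1 (4 signals of 0), genotype as the factor and a variance trend on mean signal. The p-values are two-sided and Benjamini-Hochberg adjusted over all probe sets tested, with a threshold of 0.05. Lists use the brightest tested probe set of a gene. The procedure was tested on simulated data.

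Where a group had no Present call, "at least" compares the brighter mean log2 signal with the higher, per array, of the dim signal and the lowest Present signal (4.1 to 6.9). Such a bound depends on that choice and is not a confidence limit. Where every dim signal lay above the lowest Present signal, as for Tnnt3, Mylpf, Atp2a1 and Hbb-y, it equals the fitted fold. For these genes the fitted fold is given without "at least". SEs of isoform pairs combine both fitted SEs. Named genes are the members, Hdac2, up to 6 called members of each of 13 lists (164 memberships, 158 on the array) or else its member of smallest p, and the 3 closest patterns; Actn3, Casq1, Eno3, the tropomyosins, Lsp1, Xist, Eif2s3y, Chrna1, Pdgfra and Nkx2-5 beyond that rule and the fast isoform pairs were chosen after their values were seen. Members and lists were chosen with earlier results of these data known. With 2 arrays per group, their number limits the precision. The alternatives were other scalings, offsets, floors, filters and variance models, the log ratio, a replicate block and each array left out.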

Additional observations from a re-analysis of the deposited data

How the results depend on the processing

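Without a filter on detection 3 troponin probe sets were lower (Tnnc2, Tnnt3 and Tnni2 1438609_x_at). With Present on all 4 arrays 3 were lower of the 8 left to test. Without a variance trend 1 was lower (Tnnt3), and with the signal log ratio 0. The count was 5 to 6 with an array left out and 6 under both other scalings, both offsets, the floor of 10 and the replicate block, and 5 with a robust variance prior, where Tnnc2 lost its call (adjusted p = 0.206). Tnnt3 lost its call with the signal log ratio alone (adjusted p = 0.0771). Without a filter on detection, Tnni2 1416889_at, Tnnt1 and Tnnt2 1440424_at did not pass (adjusted p = 0.114, 0.0918 and 0.290). The cause of these losses was not tested.

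Over the array, 73 probe sets were higher and 183 lower. The counts were 7 and 30 without a filter on detection, 4 and 19 without a variance trend, and 0 and 0 with the signal log ratio. They ranged from 48 to 222 higher and from 110 to 428 lower with an array left out (222 and 428 without KO replicate 1, 110 lower without WT replicate 1, 48 higher without KO replicate 2). With the replicate block they were 271 and 450. The titles label the arrays 1A and 2A in WT and 1B and 2B in KO, and what these labels mark is not given. Same-numbered arrays did not deviate together (correlation -0.011 over probe sets), and the numbers are not taken as a pairing. With 2 arrays per group, this correlation cannot show whether pools shared a litter or a batch.

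Near-zero differences turned sign. Tnnc1 went to 0.0038 with quantile normalization. With median centring Tnni1, Tnni3 and Tnnt2 1418726_a_at went to -0.022, -0.017 and -0.024, and with the signal log ratio to -0.050, -0.050 and -0.050. With an array left out, Tnni1 ranged from -0.033 to 0.052, Tnni3 from -0.014 to 0.044 and Tnnt2 1418726_a_at from -0.029 to 0.044, and Tnni1 minus Tnni3 from -0.068 to 0.058. No other isoform pair turned sign under the alternatives run.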
